A study of Mus musculus with 6 samples.

Results

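The genes described here encode the mucus that goblet cells secrete onto the colonic surface and the proteins that fold, transport or specify it. They are 10 of the 55487 genes of the count table (Muc2, Fcgbp, Clca1, Zg16, Tff3, Spink4, Agr2, Sytl2, Spdef and Foxa3), matched by gene symbol, and all 10 had enough reads to be tested. RNA was sequenced from intestinal epithelial cells (IECs) of the colon of mice given dextran sodium sulphate (DSS), a polymer that injures the colonic epithelium, to ask what loss of the histone methyltransferase NSD2 does to their transcriptome. Both groups carried the floxed Nsd2 alleles (NSD2-FF): 3 Nsd2 f/f libraries, titled WT, and 3 Nsd2 Vil-KO libraries (NSD2-FF-VILCRE), in which Villin-Cre deletes Nsd2 in the intestinal epithelium and not in other cells. The mice were littermates on a C57BL/6J background, and colitis was induced at 2 months of age with 2% DSS. The cells were shaken off colon pieces with EDTA, with no sorting step named in the methods. There was no group without DSS, and the day on DSS and the sex of the mice are not given in the sources used here.

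Goblet cells package MUC2, the gel-forming mucin of the colon, into granules and release it to build the layer that keeps bacteria away from the epithelium. Other granule proteins bind to or cleave the gel, and folding enzymes of the endoplasmic reticulum are needed to make so large a glycoprotein. The maturation of the lineage depends on transcription factors such as SPDEF, and thinning of the mucus layer is a known feature of DSS colitis.

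The 250 bases before the RefSeq start site are shown for Muc2, the mucin itself, and for Spdef, the maturation factor, because these were the 2 found to hold a forkhead or GATA match. Each sequence runs 5′ to 3′ on the strand of its gene in the GRCm38.p6 build, with the forkhead or GATA matches in capitals. RefSeq promoter entries were found for 5 of the 10 genes: Muc2, Fcgbp, Agr2, Spdef and Foxa3. The motifs, searched on both strands, were the forkhead letters TNTTTAC, since FOXA3 is a forkhead factor, the GATA letters GATAA, and TATAAA. The Muc2 and Spdef stretches lie at chr7:141690090-141690339 on the plus strand and chr17:27728952-27729201 on the minus strand.
Muc2: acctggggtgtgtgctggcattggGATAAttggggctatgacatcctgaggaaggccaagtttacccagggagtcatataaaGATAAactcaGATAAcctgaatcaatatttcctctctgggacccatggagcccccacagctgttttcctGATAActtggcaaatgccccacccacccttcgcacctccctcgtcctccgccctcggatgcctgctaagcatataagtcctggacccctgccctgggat
Spdef: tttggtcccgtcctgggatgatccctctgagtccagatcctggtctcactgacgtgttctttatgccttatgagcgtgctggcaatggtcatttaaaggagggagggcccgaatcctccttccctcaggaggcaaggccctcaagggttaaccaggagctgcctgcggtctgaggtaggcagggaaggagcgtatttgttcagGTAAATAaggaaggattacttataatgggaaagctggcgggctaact
The Muc2 promoter held 4 GATAA matches, a number reached in 0.1187% of the 32851 mouse promoters searched at this length, whereas 22.58% held at least 1. A TATAAA stood 174 bases before the Muc2 start, next to a GATAA match and not overlapping it, and another stood 36 bases before the Foxa3 start; 12.37% of all promoters held 1. Spdef had a single forkhead match, on its opposite strand, 47 bases before its start, and 10.9% of all promoters held this motif. These are matches of letters in a window and not measured binding sites.

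The libraries held 15439123 to 20350539 counted reads. Nsd2 itself, the check of the genotype, stood at 47.9, 51.2 and 24.6 CPM (read counts relative to the TMM-scaled size of the library) in Nsd2 f/f and at 24.2, 10.4 and 20.8 in Nsd2 Vil-KO, with a log2 fold change of -1.16 ± 0.39 (SE, n = 3 per group, edgeR adjusted p = 0.992), past the screening criterion given below but not past the adjustment. Nsd2 f/f replicate 3 and Nsd2 Vil-KO replicate 2 stood apart. They carried 4296 and 3684 counts of Xist, transcribed from the inactive X chromosome of females, against 1 to 5 in the other 4 libraries, and 2 and 0 counts of the Y-linked Ddx3y against 777 to 1049. Nsd2 f/f replicate 3 also had 19.6% mitochondrial counts against 5.51% to 9.13% elsewhere. The fold change of each of the 10 genes is therefore also given for the other 4 libraries, 2 per genotype. The 7 pan-epithelial markers were read in every library and summed to 11358 to 17336 CPM in Nsd2 f/f and 12716 to 15686 in Nsd2 Vil-KO. Markers of other cells were present as well: the summed CPM of 7 neutrophil and macrophage genes ran from 112 to 955 in Nsd2 f/f and from 292 to 1142 in Nsd2 Vil-KO, and that of 6 fibroblast and muscle genes from 4.36 to 218 and from 6.21 to 60.5. Their part in the results below was not tested.

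The comparison of the genotypes was made gene by gene. Each log2 fold change is Nsd2 Vil-KO over Nsd2 f/f with its standard error from edgeR's quasi-likelihood fit, the screening criterion is a fold change above 1.2 with an unadjusted p below 0.05, and adjusted p-values are over all tested genes. Beside it a two-sided exact permutation test of each gene's log2 CPM over the 6 libraries is given, for which 3 libraries against 3 cannot go below 0.1.

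The mucus genes were abundant. Together the 10 genes took 1.76%, 1.52% and 1.32% of all counts in Nsd2 f/f and 1.24%, 0.890% and 1.21% in Nsd2 Vil-KO, so that each Nsd2 Vil-KO library lay below each Nsd2 f/f library. The order of the groups was the same after mitochondrial counts were left out, with 1.89%, 1.64% and 1.65% against 1.34%, 0.980% and 1.28%. Muc2 was the largest contributor in 4 of the 6 libraries, whereas Zg16 came first in Nsd2 f/f replicate 3 and Agr2 in Nsd2 Vil-KO replicate 2. In bulk RNA, fewer goblet cells and less of these RNAs per goblet cell cannot be told apart.

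**Figure D1:**
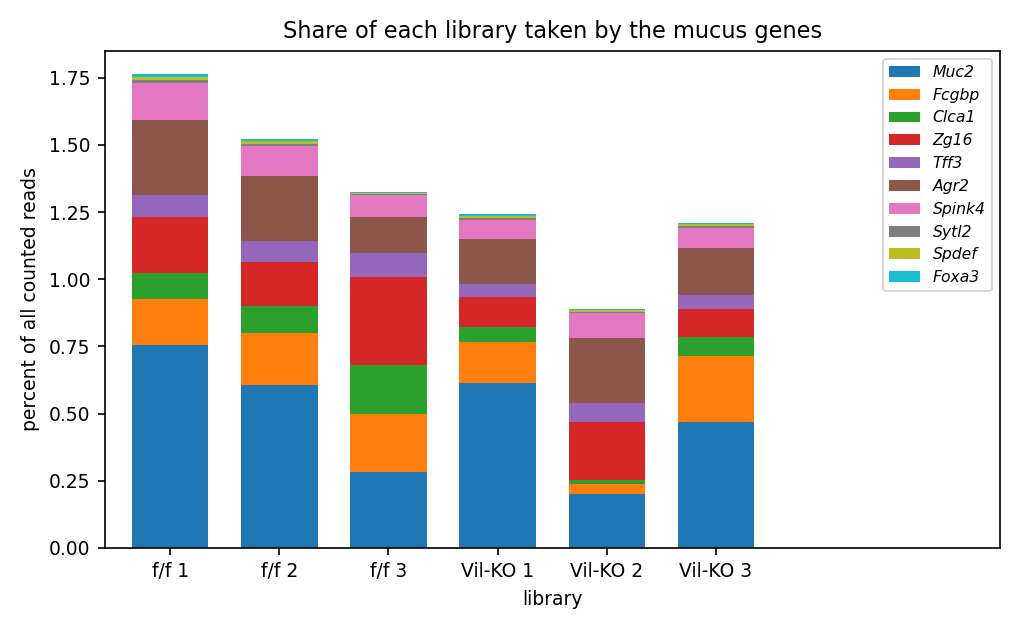
The stacked bars give the percent of all counted reads taken by each of the 10 mucus genes (y axis) in each of the 6 libraries (x axis). The Nsd2 f/f bars end between 1.32% and 1.76% and the Nsd2 Vil-KO bars between 0.890% and 1.24%, with less Muc2 and more Zg16 in Nsd2 f/f replicate 3 than in the other Nsd2 f/f libraries.

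Levels of different genes were compared per kilobase of annotated exon. On this scale Spink4 was highest, at a mean of 2003 ± 513 CPM per kb (SD, 6 libraries), followed by Agr2 at 1598, Zg16 at 1590, Tff3 at 1436, Muc2 at 659, Clca1 at 240, Fcgbp at 162, Spdef at 38.4, Foxa3 at 25.4 and Sytl2 at 4.56. Neighbours in this order overlapped over the 6 libraries except Foxa3 and Sytl2. Within libraries the order was steadier than these ranges: Spink4 was above Agr2, Tff3 above Muc2, Fcgbp above Spdef and Spdef above Foxa3 in 6 of 6 libraries, whereas Zg16 was above Tff3 in 2 of 6. The transcription factors lay at the low end. The annotation marks the Muc2 locus as fragmented, so its exon length and its level per kb are uncertain. All 10 genes are annotated as protein-coding in GENCODE vM21, and no exon of theirs overlaps an exon of another gene.

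Among the genes of the mucus polymer, Muc2, the gel-forming mucin (chr7:141690340-141754693), stood at 6857, 5694 and 3512 CPM in Nsd2 f/f replicates 1 to 3 and at 5548, 2246 and 4310 CPM in Nsd2 Vil-KO. Its lowest library in each genotype was the one with Xist, and the genotypes overlapped. The log2 fold change was -0.41 ± 0.44, with an exact permutation p = 0.4. Over the 4 libraries without Xist it was -0.34 ± 0.18 (adjusted p = 0.524) and did not pass the criterion, although both Nsd2 Vil-KO values lay below both Nsd2 f/f values. The value moved to -0.12 without Nsd2 Vil-KO replicate 2 and to -0.71 without Nsd2 Vil-KO replicate 1.

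Clca1, a metalloprotease that processes MUC2 in the mucus (chr3:145003817-145032776), was the gene with the largest difference. Its CPM were 886, 957 and 2281 in Nsd2 f/f and 515, 148 and 658 in Nsd2 Vil-KO. Every Nsd2 Vil-KO library lay below every Nsd2 f/f library, and the highest and the lowest value both came from libraries with Xist. The log2 fold change was -1.64 ± 0.62, with a 95% interval of -3.10 to -0.19. It passed the criterion, with an edgeR adjusted p = 0.992, and the exact permutation test gave p = 0.1, the smallest value possible. Over the 4 libraries without Xist the log2 fold change was -0.64 ± 0.14 (adjusted p = 0.327), again past the criterion. Leaving out Nsd2 f/f replicate 3 gave -1.06 and leaving out Nsd2 Vil-KO replicate 1 gave -1.77, neither past the criterion.

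Fcgbp encodes a large protein of the mucus (chr7:28071236-28120862). It was read at 1578, 1821 and 2679 CPM in Nsd2 f/f and at 1392, 444 and 2261 CPM in Nsd2 Vil-KO. A single library, Nsd2 Vil-KO replicate 2, stood far below the rest, and Nsd2 Vil-KO replicate 3 was above 2 of the Nsd2 f/f libraries. The log2 fold change of -0.57 ± 0.56 (exact permutation p = 0.4) became 0.11 ± 0.24 (adjusted p = 0.891) over the 4 libraries without Xist, so that Fcgbp was the only one of the 10 genes whose direction turned there. Leaving out Nsd2 Vil-KO replicate 2 gave -0.15 and leaving out Nsd2 Vil-KO replicate 3 gave -1.14.

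The 3 small secreted proteins followed another pattern over the libraries. Zg16, a lectin-like protein that binds Gram-positive bacteria (chr7:127050156-127087328), was at 1868, 1555 and 4111 CPM in Nsd2 f/f and at 1024, 2450 and 985 CPM in Nsd2 Vil-KO. The libraries with Xist were the highest of their genotype, and only Nsd2 Vil-KO replicate 2 reached into the range of Nsd2 f/f. The fold change was -0.76 ± 0.52 on the log2 scale (exact permutation p = 0.3). Over the 4 libraries without Xist it was of the same size with a smaller error, -0.76 ± 0.14 (adjusted p = 0.261), and passed the criterion. Each of the libraries with Xist moved it when left out alone, to -0.20 without Nsd2 f/f replicate 3 and to -1.32, past the criterion, without Nsd2 Vil-KO replicate 2.

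Tff3, the trefoil factor of goblet cells with a role in epithelial restitution (chr17:31125306-31129646), had 756, 724 and 1087 CPM in Nsd2 f/f against 433, 789 and 458 CPM in Nsd2 Vil-KO. As for Zg16, Nsd2 Vil-KO replicate 2 alone overlapped with Nsd2 f/f. Its log2 fold change was -0.61 ± 0.32 (exact permutation p = 0.3), and -0.72 ± 0.11 over the 4 libraries without Xist (adjusted p = 0.160), past the criterion. It was -0.40 without Nsd2 f/f replicate 3 and -0.94, past the criterion, without Nsd2 Vil-KO replicate 2.

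Spink4, a Kazal-type peptide abundant in goblet cell granules (chr4:40920052-40931395), was measured at 1253, 1073 and 1038 CPM in Nsd2 f/f and at 628, 1055 and 685 CPM in Nsd2 Vil-KO. The 3 Nsd2 f/f libraries lay close together, with Nsd2 Vil-KO replicate 2 among them and the other Nsd2 Vil-KO libraries below. For Spink4 the log2 fold change was -0.51 ± 0.28 (exact permutation p = 0.2), and over the 4 libraries without Xist -0.81 ± 0.13 (adjusted p = 0.182), past the criterion and the largest difference of the 10 genes in that comparison. Without Nsd2 Vil-KO replicate 2 alone it was -0.77, also past the criterion.

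Agr2, a protein disulphide isomerase needed for the folding of MUC2 (chr12:35992907-36004087), stood at 2553, 2273 and 1666 CPM in Nsd2 f/f and at 1521, 2734 and 1628 CPM in Nsd2 Vil-KO. Its highest library of all was Nsd2 Vil-KO replicate 2. The difference of -0.14 ± 0.34 on the log2 scale (exact permutation p = 0.7) was the smallest of the 10, whereas the 4 libraries without Xist gave -0.61 ± 0.13 (adjusted p = 0.327), past the criterion. Without Nsd2 Vil-KO replicate 1 the value was 0.013, at the other side of 0.

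Sytl2, an adaptor of RAB27 that takes part in docking granules at the plasma membrane (chr7:90302252-90410719), was at 84.0, 68.7 and 50.5 CPM in Nsd2 f/f. In Nsd2 Vil-KO it was nearly constant, at 59.4, 58.5 and 60.1 CPM, inside the range of Nsd2 f/f. This gave a log2 fold change of -0.19 ± 0.21 (exact permutation p = 0.7), and of -0.34 ± 0.13 over the 4 libraries without Xist (adjusted p = 0.427), past the criterion. Without Nsd2 f/f replicate 1 almost nothing of it was left (-0.0061).

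Spdef, the ETS factor of goblet cell maturation (chr17:27714352-27728955), had 128, 101 and 57.1 CPM in Nsd2 f/f and 90.6, 81.8 and 72.0 CPM in Nsd2 Vil-KO. Nsd2 f/f held both its highest and its lowest library. Its log2 fold change of -0.23 ± 0.30 (exact permutation p = 0.8) was -0.48 ± 0.17 over the 4 libraries without Xist (adjusted p = 0.411), past the criterion, and turned to 0.04 when Nsd2 f/f replicate 1 was left out. Leaving out Nsd2 f/f replicate 3 gave -0.49, past the criterion. Foxa3, the forkhead factor of the same lineage (chr7:19013284-19023538), was read at 71.2, 56.5 and 42.4 CPM in Nsd2 f/f and at 51.7, 44.9 and 43.6 CPM in Nsd2 Vil-KO. It ran closely along with Spdef, with the lowest value again in Nsd2 f/f replicate 3. Foxa3 differed by -0.28 ± 0.22 on the log2 scale (exact permutation p = 0.4), and by -0.41 ± 0.16 without the libraries with Xist (adjusted p = 0.429), past the criterion. It was -0.08 without Nsd2 f/f replicate 1.

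**Figure D2:**
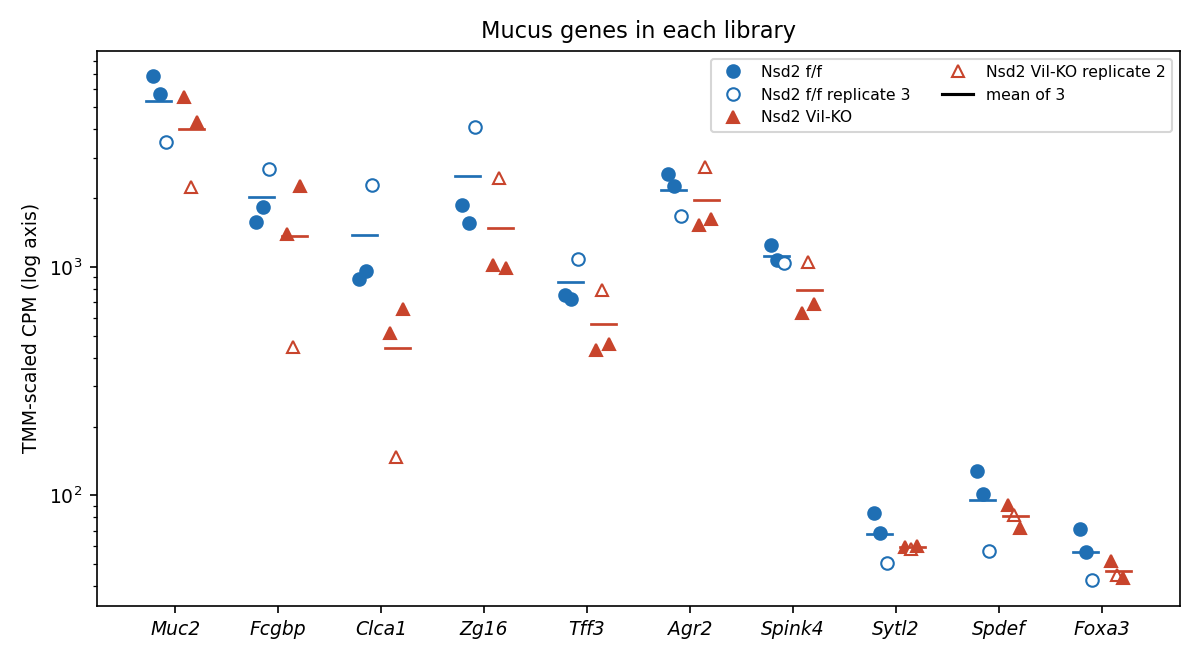
Each point is the level of a gene in 1 library (y axis, TMM-scaled CPM on a log axis) for the 10 mucus genes (x axis). Circles are Nsd2 f/f, triangles Nsd2 Vil-KO, open symbols the 2 libraries with Xist, and short lines the means of 3 libraries; only for Clca1 do all triangles lie below all circles.

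Over the 6 libraries, 10 of the 10 genes had a negative log2 fold change, with a median of -0.46, whereas 49.9% of the 14650 tested genes were negative, with a median of 0.0012. Clca1 was the only gene of the 10 past the criterion, and the adjusted p-values of the 10 ran from 0.992 to 0.996. Over all tested genes 3.29% passed this criterion in either direction and 1.65% passed it with a lower level in Nsd2 Vil-KO. The 1 gene of 10 with every Nsd2 Vil-KO library below every Nsd2 f/f library stood beside 4.70% of all tested genes. No gene of the 10 and none of the table had an adjusted p below 0.05 by edgeR, while 482 genes of the table and Clca1 alone of the 10 passed the criterion; DESeq2 gave 4 adjusted calls over the table and 0 among the 10. The direction was thus shared by the 10 genes, but the difference exceeded the spread between libraries for Clca1 alone and only before adjustment.

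Without the 2 libraries with Xist, 8 of the 10 genes passed the criterion, all with a lower level in Nsd2 Vil-KO: Clca1, Zg16, Tff3, Agr2, Spink4, Sytl2, Spdef and Foxa3. In this comparison of 2 libraries with 2, 5.36% of all 15030 tested genes passed the criterion with a lower level. Both Nsd2 Vil-KO values lay below both Nsd2 f/f values for 9 of the 10 genes, Fcgbp being the exception, and for 21.7% of all tested genes. The median of the 10 log2 fold changes was -0.55, the lowest adjusted p was 0.160, and no gene of the table passed after adjustment. When all 6 libraries were kept and the presence of Xist was a term of the model, 3 of the 10 genes passed with a lower level (Zg16, Tff3 and Spink4) against 4.08% of all tested genes, and Clca1 did not pass, at -1.65. Which genes were called thus depended on how the 2 libraries were treated, and Clca1 was called with 6 libraries and with 4 but not with the Xist term.

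**Figure D3:**
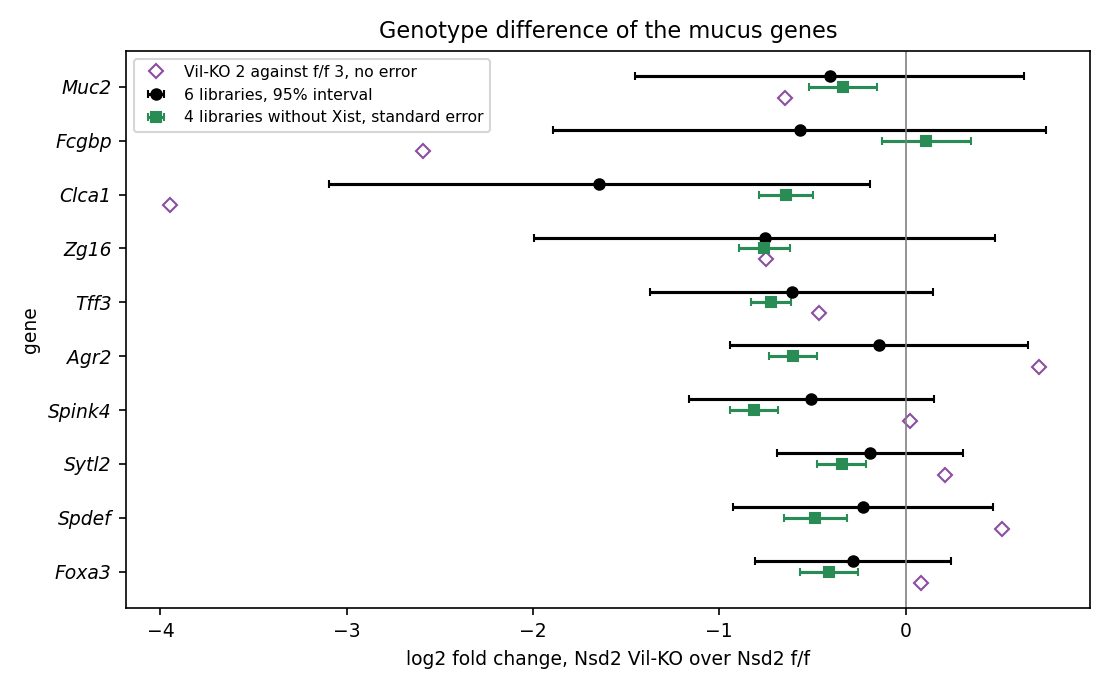
The x axis gives the log2 fold change of Nsd2 Vil-KO over Nsd2 f/f for each of the 10 mucus genes (y axis), with filled circles for 6 libraries and their 95% intervals, squares for the 4 libraries without Xist and their standard errors, and open diamonds for Nsd2 Vil-KO replicate 2 against Nsd2 f/f replicate 3, with no error. The circles all lie below 0, and the interval of Clca1 alone leaves out 0; the diamonds spread from -3.95 for Clca1 to 0.71 for Agr2.

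The 10 genes did not share a single profile over the libraries. In the 2 libraries with Xist, 1 per genotype, the log2 difference of Nsd2 Vil-KO replicate 2 from Nsd2 f/f replicate 3 was -3.95 for Clca1, -2.59 for Fcgbp and 0.71 for Agr2, and 5 of the 10 genes were negative. The genotype difference was tested for a change with Xist by an interaction term, whose spread rests on the other 4 libraries. The interaction passed for Clca1 (-3.30 on the log2 scale, adjusted p = 0.00143), Fcgbp (-2.70, adjusted p = 0.0226) and Agr2 (1.33, adjusted p = 0.0144), beside 12.0% of all tested genes with an adjusted p below 0.05. For the other 7 genes it did not pass, with Spink4 (0.85, adjusted p = 0.0542) and Spdef (1.01, adjusted p = 0.0640) nearest to the threshold and Zg16 close to 0 (0.022). In the same 2 libraries, markers of other states also stood apart from the other libraries of their genotype. The 8 absorptive colonocyte genes summed to 7697 CPM in Nsd2 f/f replicate 3 against 2657 and 2801. In Nsd2 Vil-KO replicate 2 they went the other way, at 2480 CPM against 3610 and 3406. The 4 crypt stem genes were low in both, at 59.9 CPM against 146 and 141 in Nsd2 f/f and 9.65 against 118 and 124 in Nsd2 Vil-KO. So were 4 cycling genes, at 173 CPM against 623 and 646 in Nsd2 f/f and 300 against 613 and 834 in Nsd2 Vil-KO. The part of these cells in the values of Clca1, Fcgbp and Agr2 was not tested.

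**Figure D4:**
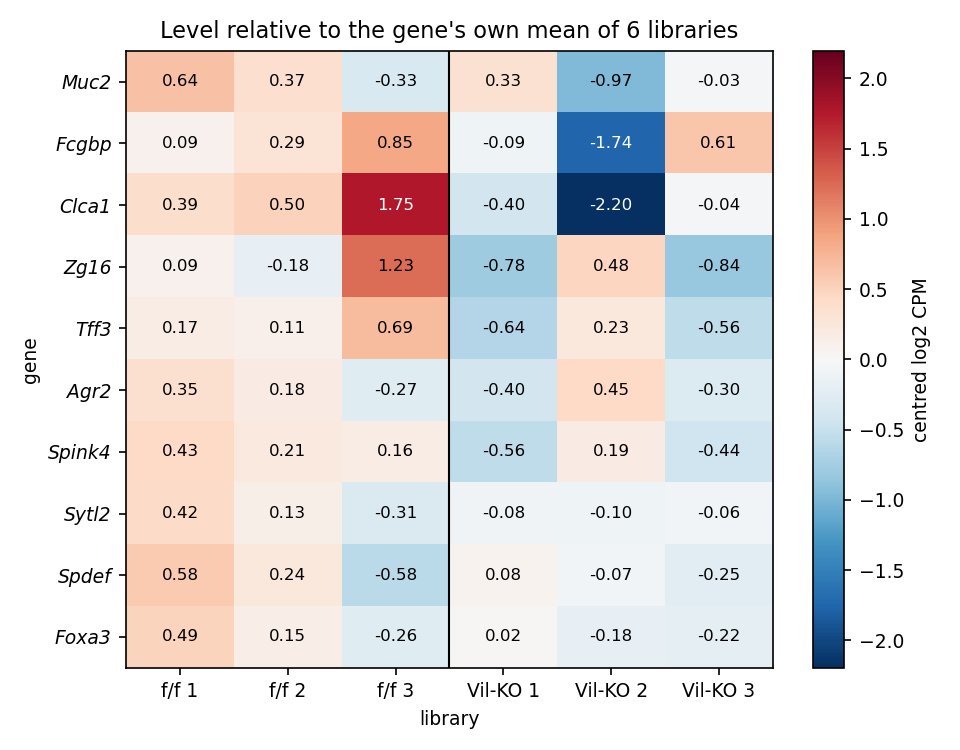
Each cell gives the log2 CPM of a mucus gene (rows) in a library (columns) minus that gene's mean over the 6 libraries, from blue (below the mean) to red (above); the vertical line parts Nsd2 f/f from Nsd2 Vil-KO. Clca1 ranges from 1.75 in Nsd2 f/f replicate 3 to -2.20 in Nsd2 Vil-KO replicate 2, while Sytl2 stays between -0.31 and 0.42.

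Ratios of counts within a library, which do not depend on scaling, were also described. The ratio of Clca1 to Fcgbp was 0.561, 0.526 and 0.851 in Nsd2 f/f and 0.370, 0.333 and 0.291 in Nsd2 Vil-KO, without overlap. Spink4 to Agr2 was 0.491, 0.472 and 0.623 in Nsd2 f/f against 0.413, 0.386 and 0.421 in Nsd2 Vil-KO, also without overlap. Muc2 to Zg16 instead followed the libraries with Xist, at 0.854 and 0.917 in these and between 3.66 and 5.42 in the other 4. Of the 9 ratios that were computed, all but Clca1 to Fcgbp and Spink4 to Agr2 overlapped between the genotypes, and none was tested. The 9 pairs were a selection, and ratios of other gene pairs were not computed. The separation of Clca1 to Fcgbp and of Spink4 to Agr2 therefore has no share of other ratios to stand beside. Separation of 3 libraries from 3 can also arise by chance, since the exact permutation test cannot go below 0.1 for it.

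The other genes of the mucus system were described from a list of 55 further goblet cell and mucus genes, of which 46 were tested. The list was chosen with earlier results of these data known, so its counts are not independent support beside the shares of all tested genes. It also held genes not particular to goblet cells, such as Slc26a3 and Guca2a, which were among the absorptive colonocyte markers. Of these 46, 31 had a negative log2 fold change, 7 passed the criterion with a lower level in Nsd2 Vil-KO and 0 with a higher one, beside 1.65% of all tested genes lower, and the median was -0.30. In 11 of the 46 every Nsd2 Vil-KO library lay below every Nsd2 f/f library, beside 4.70% of all tested genes. Reg4, a lectin of the deep crypt secretory cells of the colon, was at 358, 381 and 741 CPM in Nsd2 f/f and 177, 98.4 and 213 CPM in Nsd2 Vil-KO, without overlap (log2 fold change -1.60 ± 0.40, and -0.91 ± 0.12 over the 4 libraries without Xist). The other 6 were Best2, a bicarbonate channel of goblet cells (-1.02 ± 0.40), Sytl4, a granule adaptor related to Sytl2 (-0.996 ± 0.361), Rep15, a RAB15 effector (-0.91 ± 0.30), Klk1, tissue kallikrein (-0.87 ± 0.31), Bcas1 (-0.70 ± 0.25) and Hes6, a helix-loop-helix factor (-0.49 ± 0.19), and all 7 had an adjusted p of 0.992. Of the 7, Best2 overlapped between the genotypes and the other 6 did not. All 7 also passed over the 4 libraries without Xist, with smaller differences for Rep15 (-0.50), Sytl4 (-0.71), Bcas1 (-0.54) and Hes6 (-0.32) and about the same for Best2 (-1.03) and Klk1 (-0.88). There the list had 14 genes lower and 5 higher, beside 5.36% and 5.60% of all tested genes, with a median of -0.12.

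The groups by function were small, and their counts stand beside all tested genes. Of these, 49.9% were negative over 6 libraries and 50.0% over 4, and 1.65% passed with a lower level over 6. By function, the fate and maturation factors had 6 of 7 genes negative and 1 past the criterion (Hes6). Klf4, the gene of this group with the most reads, was at 435, 584 and 803 CPM in Nsd2 f/f and 537, 646 and 675 CPM in Nsd2 Vil-KO (0.03 ± 0.28, and 0.26 over the 4 libraries without Xist). Folding and processing genes had 5 of 8 negative and 1 past the criterion (Bcas1), with Xbp1, the factor of the unfolded protein response, at 370, 344 and 262 CPM against 346, 574 and 463 CPM (0.50 ± 0.26, and 0.19 over the 4 libraries). Of the other secreted products 8 were tested and 3 passed (Reg4, Rep15 and Klk1). Lypd8, an anchored protein that segregates bacteria, was at 9683, 13280 and 21618 CPM in Nsd2 f/f and 9489, 13592 and 8823 CPM in Nsd2 Vil-KO (-0.48 ± 0.44, and -0.32 over the 4 libraries). The genes of mucus cross-linking, cleavage and unfolding were negative in 6 of 6 with 1 past the criterion (Best2), but over the 4 libraries without Xist only 1 of the 6 was negative. Slc26a3, the chloride and bicarbonate exchanger of colonocytes, was at 371, 414 and 1424 CPM in Nsd2 f/f and 626, 229 and 686 CPM in Nsd2 Vil-KO (-0.52 ± 0.63, and 0.75 over the 4 libraries). Granule release genes had 8 of 11 negative and 1 past the criterion (Sytl4), with Nlrp6, an inflammasome receptor linked to goblet cell secretion, at 214, 326 and 453 CPM against 302, 145 and 311 CPM (-0.39 ± 0.38, and 0.20 over the 4 libraries). The gel-forming mucins of other organs, Muc5ac, Muc5b, Muc6 and Muc19, were too low to be tested, so that Muc2 was the only gel-forming mucin read at a testable level.

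The other genes of the Clca family were compared with Clca1 over the same libraries. Over the 6 libraries all 6 tested Clca paralogues on chromosome 3 had a positive log2 fold change, with a median of 0.63, and none passed the criterion. Of all tested genes 49.9% were negative there. Among the 6, Clca4c-ps is annotated as a transcribed unprocessed pseudogene. Over the 4 libraries without Xist all 6 were again positive, where 50.0% of all tested genes were negative. A higher level past the criterion was found for 3 of them, beside 5.60% of all tested genes. They were Clca3a1 (0.70 ± 0.17), Clca3a2 (0.94 ± 0.31) and Clca3b (0.59 ± 0.21), with edgeR adjusted p-values of 0.351, 0.427 and 0.423. Between the 2 libraries with Xist only 3 of the 6 were positive. With the Xist term Clca3a1 turned to -0.13, whereas Clca4a (0.63) and Clca4b (1.13) passed the criterion with a higher level. With that term 547 of all 14650 tested genes passed with a higher level. Clca4b, the paralogue with the most reads, stood at 1953, 1416 and 330 CPM in Nsd2 f/f and at 2028, 1564 and 3076 CPM in Nsd2 Vil-KO (0.85 ± 0.62, and 0.61 over the 4 libraries). The lowest Clca4b value and the highest Clca1 value came from the same library, Nsd2 f/f replicate 3. How reads shared between paralogues were assigned is not given in the sources used here, and the difference between Clca1 and its paralogues was not tested.

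**Figure D5:**
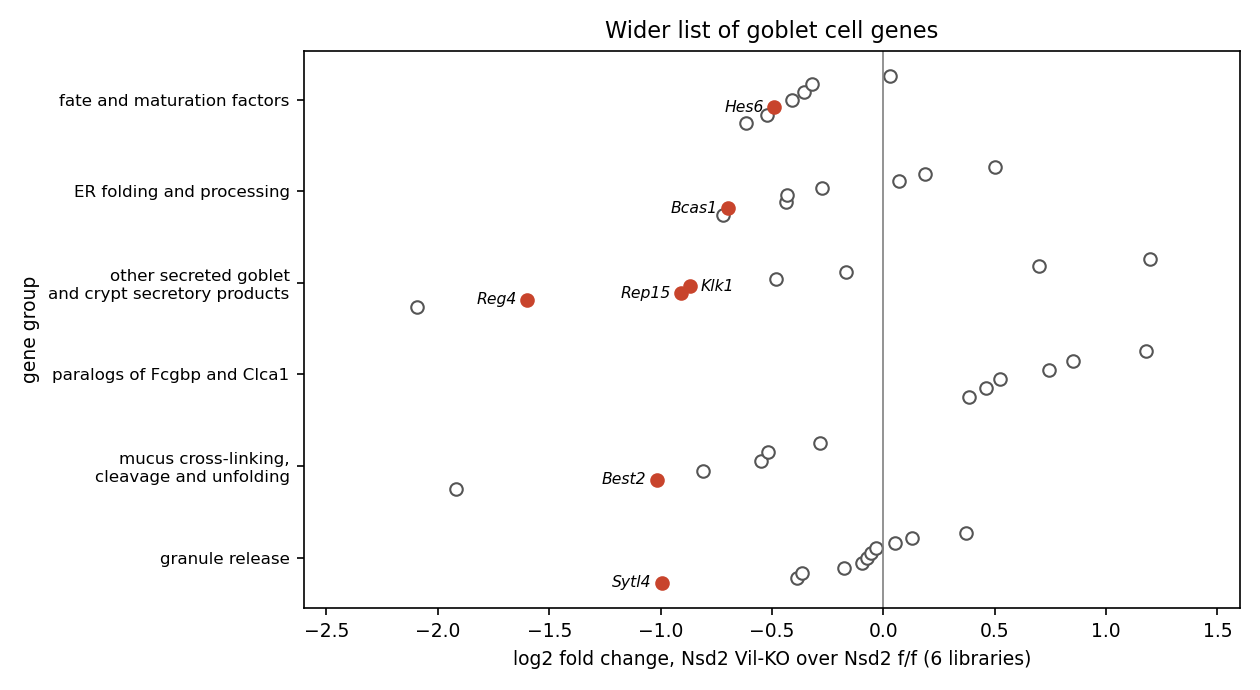
Each point is the log2 fold change of a gene of the wider list of goblet cell and mucus genes over the 6 libraries (x axis). Genes are grouped by function (y axis, points spread within a group for display). Filled red points with names passed the screening criterion. The 7 named genes lie between -1.60 and -0.49, and the 6 Clca paralogues all lie above 0.

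The tested genes outside the 10 whose centred log2 CPM profile over the 6 libraries was nearest to the mean profile of the 10 were Gm17066, Snhg18, Rps19-ps3, F3 and Samd12, at Euclidean distances of 0.188 to 0.223. F3, tissue factor of the coagulation cascade, was at 50.4, 43.1 and 43.0 CPM in Nsd2 f/f and 33.9, 28.5 and 36.4 CPM in Nsd2 Vil-KO. The 10 genes themselves lay farther from their own mean, at 0.667 (Foxa3) to 2.35 (Clca1), and for each of them at least 1127 other genes were nearer to it. The mean profile thus described none of the 10 closely.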

How the data were processed

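The deposited table holds whole-number read counts per gene for 6 libraries, which the authors made from reads aligned to mm10 with HISAT2. The study's methods name a directional poly(A) kit, whereas the labels name an Illumina TruSeq kit. How reads were counted, and whether by strand, is not given in the sources used here. Depth was 15439123 to 20350539 counts, and 3 counts corresponded to 0.147 to 0.194 CPM. Genotype came from the sample labels.

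Genes were filtered by expression within genotype, which left 14650, and fitted with edgeR 4.0.16 (TMM, quasi-likelihood test, robust) with Benjamini-Hochberg adjustment over all of them. The study tested FPKM values with Ballgown, and counts needed another test. Of its call rules, the screening criterion was kept as the main one (fold change above 1.2 and unadjusted p below 0.05), and the adjusted p below 0.05 that its methods also name was counted beside it. CPM were computed on TMM-scaled library sizes, and gene positions, on GRCm38 (mm10), and exon lengths came from GENCODE vM21. Nothing in the labels says that the libraries are separate mice, so the p-values measure the spread between these libraries.

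The 10 genes and the wider lists were chosen with earlier results of these data known. Further genes were named if they passed the criterion, had the highest mean CPM of their group, or had 1 of the 5 nearest profiles. Alternatives were other scalings and filters, DESeq2 1.42.0, limma-voom 3.58.1, a replicate block, 4 libraries and each library left out. The 2 libraries outside the 4 were set apart by counts in these same data, so that choice was not independent of the data. Chosen after seeing the data were also Xist (at least 100 counts) as a covariate and the interaction of genotype with Xist. The fit was also run on simulated counts. These were drawn alike for all libraries of a genotype and did not imitate the 2 libraries with Xist.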

Additional observations from a re-analysis of the deposited data

Results flagged for a closer look

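For 3 of the 10 mucus genes the genotype difference itself differed between the libraries with and without Xist transcripts. By edgeR's interaction test, added after the data had been seen, the difference of the log2 fold changes was -3.30 ± 0.27 (SE) for Clca1, -2.70 ± 0.44 for Fcgbp and 1.33 ± 0.23 for Agr2, with adjusted p-values of 0.00143, 0.0226 and 0.0144. The libraries with Xist number 1 per genotype, so their spread was assumed to equal that of the other 4. Over all tested genes 12.0% had an adjusted p below 0.05 in this test, and 30.1% had an unadjusted p below 0.05. Sex, preparation and the individual mouse cannot be told apart in these 2 libraries.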

How the results depend on the processing

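Of the 10 mucus genes, 1 was called over 6 libraries, 2 on library size only (Clca1 and Tff3) or with pan-epithelial scaling, 6 by limma-voom with quality weights, 8 over 4 libraries, 3 with Xist as a covariate, and 0 at an adjusted p below 0.05. Leaving out each library gave 0 (without Nsd2 Vil-KO replicate 1) to 4 calls (without Nsd2 Vil-KO replicate 2). The median log2 fold change of the 10 stayed negative in every alternative run, between -0.55 and -0.30. Of the wider list, 7 genes were called over 6 libraries and 13 by limma-voom, all lower, and 0 after adjustment. The calls were 19 over 4 libraries (14 lower and 5 higher) and 17 with the Xist covariate (14 lower and 3 higher). Leaving out each library gave 3 to 10 calls in either direction, the fewest without the third library of either genotype. The medians then ran from -0.37 to -0.10, the latter without Nsd2 f/f replicate 3. Deviations of same-numbered libraries from their genotype mean correlated at r = 0.32, -0.35 and -0.11. With 3 libraries per genotype, 1 of each with Xist, this cannot show whether the numbers pair the samples. A replicate block gave 4 calls in the wider list, 1 among the 10 genes and 303 over the table. Directions turned for Fcgbp over 4 libraries (0.11), Slc26a3 by limma-voom and over 4 libraries (0.56 and 0.75) and Nlrp6 in the same 2 fits (0.083 and 0.20). They also turned when a library was left out, with log2 fold changes from -0.46 to 0.013 for Agr2, from -0.49 to 0.041 for Spdef, from -0.16 to 0.28 for Klf4 (lowest without f/f 1, also below 0 at -0.0025 and -0.037 without Vil-KO 2 and 3) and from -0.84 to 0.39 for Slc26a3, the last without f/f 3; the cause was not tested. The calls above stand beside these counts over the table. Of 14650 tested genes, 482 passed the criterion in 6 libraries, 382 on library size only and 356 with pan-epithelial scaling. By limma-voom 1440 of 14650 passed, 758 of them lower, and with the Xist covariate 1145 of 14650. Without the filter 861 of 26360 passed, and over 4 libraries 1646 of 15030. The count was 551 of 15015 without Nsd2 Vil-KO replicate 1 and 769 of 15139 without Nsd2 Vil-KO replicate 2. It was 515 of 15222 without Nsd2 f/f replicate 3 and 515 of 15130 without Nsd2 Vil-KO replicate 3. The design of 3 against 3 limits any single gene to an exact permutation p of 0.1, and counts near 0, as for the other gel-forming mucins, give no difference at this depth.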
